A study of Mus musculus with 12 samples.

Results

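The genes described here encode the heat-shock proteins and co-chaperones of the mouse lung. They were chosen by name: protein-coding genes whose symbols begin with Hspa, Hspb, Hspd, Hspe, Hsph, Hsp90, Dnaja, Dnajb or Dnajc, and Bag1 to Bag6. Hspa5, Hsp90b1, Dnajb9, Dnajb11 and Dnajc3, which belong to the folding machinery of the endoplasmic reticulum (ER), were left out. This gave 75 genes of 18912 protein-coding genes and 35599 genes in all. Most of the proteins are cytosolic, but by their known location 9 of the 75 work in the ER and 9 in mitochondria, so the set is wider than the cytosolic system. Lung RNA had been sequenced from 3 groups of mice with 4 libraries each. ND-RHL lung came from mice given bleomycin and lipopolysaccharide (LPS) and then treated with ND-RHL, a liposome that carries nintedanib and dexamethasone and bears hyaluronic acid (HA) and RGD peptides. AE-PF lung came from mice with the same challenge and no treatment, a model of acute exacerbation of pulmonary fibrosis in which bleomycin scars the lung and LPS, a bacterial product, inflames it. Saline lung was the control. Strain, age, doses and times are not stated by the sources used here. Empty liposomes and single drugs are not analysed here, so the parts of the ND-RHL formulation cannot be told apart. Nothing in the labels ties the replicates of a group to separate animals, and p-values measure the spread between these samples, which may be technical.

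Chaperones of the HSP70 family bind unfolded stretches of protein in cycles driven by ATP. J proteins (the Dnaja, Dnajb and Dnajc genes) bring clients to HSP70 and set off ATP hydrolysis, and HSP110 and BAG proteins release the bound nucleotide. HSP90 then finishes the folding of kinases and steroid hormone receptors, the glucocorticoid receptor among them, and small heat-shock proteins hold unfolded proteins in solution. When unfolded protein accumulates, the transcription factor HSF1 binds heat-shock elements, inverted repeats of GAA, and switches on the inducible genes Hspa1a, Hspa1b, Hsph1, Dnajb1 and Hspb1.

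Values are FPKM, fragments scaled by gene length and library size, so levels can be set beside each other between genes. Libraries held 16152379 to 21667129 fragments counted to genes, and 3 fragments on a gene of 1 kb correspond to 0.138 to 0.186 FPKM. Of the 75 genes, 67 reached 1 FPKM in at least 4 libraries and were tested. Markers of alveolar type 2 cells, the surfactant-making cells of the lung, summed to 10028 to 17963 FPKM in ND-RHL, 1549 to 5173 in AE-PF and 13558 to 17297 in saline lung, so every library carried lung RNA. Replicate 4 of ND-RHL and replicate 2 of AE-PF also had high levels of markers of other tissues: squamous epithelium markers summed to 6187 FPKM in that ND-RHL library and 1857 FPKM in that AE-PF library, and to at most 13.8 FPKM in the other 10. Skeletal muscle markers summed to 1829.7 FPKM in that ND-RHL and 747 FPKM in that AE-PF library, and to at most 141 FPKM elsewhere. Results that rest on these libraries are given with and without them.

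The chaperone genes together held a smaller part of the transcriptome in both challenged groups than in saline lung. Their summed level was 1835, 1635, 1704 and 2128 FPKM in the 4 ND-RHL libraries, 1684, 1733, 1787 and 1799 FPKM in AE-PF and 3710.0, 3635, 4009 and 4005 FPKM in saline. The ranges of the challenged groups overlapped each other, and both lay below every saline library. As a share of all FPKM of a library, the genes held 0.61 ± 0.0632% in ND-RHL lung, 0.634 ± 0.0258% in AE-PF lung and 1.27 ± 0.0463% in saline lung (SD, n = 4 each). The difference came mainly from a few abundant genes. Hsp90ab1, Hspa8 and Hsp90aa1, the 3 highest, made up 42.8 ± 0.772% of the summed FPKM in ND-RHL, 44.7 ± 2.8% in AE-PF and 53.9 ± 0.964% in saline lung. By family, the share of HSP90 was 0.19 ± 0.0158% in ND-RHL, 0.182 ± 0.0167% in AE-PF and 0.454 ± 0.00428% in saline lung. The DNAJC genes went the other way, at 0.0773 ± 0.00289% in ND-RHL, 0.0836 ± 0.00226% in AE-PF and 0.071 ± 0.0014% in saline lung. These shares are descriptions with no test.

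**Figure D1:**
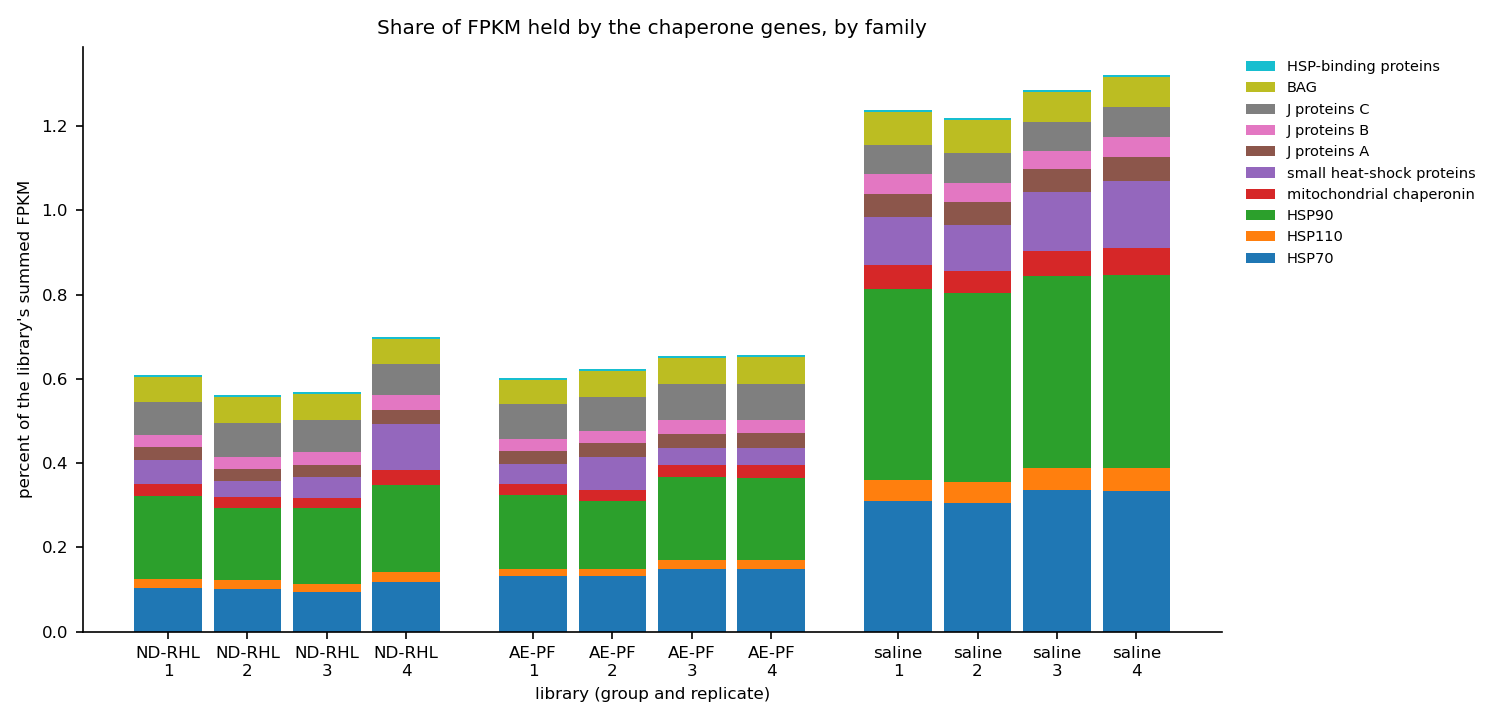
Percent of each library's summed FPKM held by the 75 genes (vertical axis), stacked by family, for the 4 libraries of ND-RHL, AE-PF and saline lung. All ND-RHL and AE-PF bars end between 0.561 and 0.699%, and the saline bars between 1.22 and 1.32%.

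Gene by gene, AE-PF lung had lower levels of most of the classical heat-shock genes, and a smaller share of the genes was higher than over all genes. Of 67 genes tested in AE-PF against saline lung, 30 were lower and 9 higher at an adjusted p under 0.05, and 28 did not pass (limma on log2(FPKM + 1), Benjamini-Hochberg over 15164 genes). Over all genes tested, 30.2% were lower and 26.4% higher, against 44.8% and 13.4% of the chaperone genes. Hspa1b was already known to fall when the family was chosen, and Hspa1a is its near-identical copy. Without both, 28 of 65 genes were lower, or 43.1%, and the median log2 change was -0.20, against -0.03 over all genes. In 32 genes, Hspa1a and Hspa1b included, every AE-PF library lay below every saline library and in 9 every one lay above, against 29.0% and 25.3% of all genes. By family, all 3 HSP110 genes, both HSP90 genes and the mitochondrial chaperonin genes Hspd1 and Hspe1 fell, as did 4 of 7 HSP70 (Hspa1a and Hspa1b not counted), 3 of 4 DNAJA, 4 of 9 DNAJB, 3 of 6 BAG and 2 of 6 small heat-shock genes. Of 23 DNAJC genes 7 rose and 3 fell. Of the 37 calls other than those 2 genes, 31 passed in every alternative; Dnajb5, Dnajc7, Dnajc21, Bag6, Hspa4 and Hspbp1 did not pass at equal FPKM totals. Bag6, Dnajb5 and Dnajc7 also missed the threshold in other alternatives, each of them without AE-PF replicate 1.

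Both challenged groups are bulk tissue, in which fewer cells of a type and less RNA per cell cannot be told apart. All 8 alveolar type 2, all 11 ciliated and 7 of 8 endothelial markers were lower in AE-PF than saline lung, and 6 of 8 macrophage and all 11 cell cycle genes were higher. Their part in the fall of the chaperone genes was not tested. Among 15 immediate early genes, which respond fast to handling of tissue, 4 were higher and 2 lower in AE-PF than saline lung. Over all genes 26.4% were higher and 30.2% lower. The median log2 change of the 15 was 0.34 in AE-PF and 0.24 in ND-RHL against saline, and -0.03 and 0.03 over all genes. The 16 listed immediate early genes summed to 424 to 700.1 FPKM in ND-RHL, 438 to 733 FPKM in AE-PF and 431 to 550.4 FPKM in saline lung, ranges that overlap. The part of handling was not tested.

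The largest differences were those of the stress-inducible HSP70 pair. Hspa1b had 4.88, 3.53, 5.76 and 10.9 FPKM in ND-RHL lung, 4.17, 5.09, 4.6 and 3.92 FPKM in AE-PF lung and 121, 117, 121 and 119 FPKM in saline lung. All challenged libraries lay far below the 4 saline libraries, which differed little among themselves. The saline mean was 19.1 times the ND-RHL mean and 26.9 times the AE-PF mean. Hspa1a had 1.8, 1.13, 2.68 and 3.53 FPKM in ND-RHL lung, 1.35, 1.36, 1.43 and 1.32 FPKM in AE-PF lung and 33.3, 32.5, 29.7 and 34.2 FPKM in saline lung, the same pattern at a lower level. In fragments, which show the depth behind these values, Hspa1a had 54 to 182 in ND-RHL, 68 to 73 in AE-PF and 1660 to 2141 in saline libraries. Against saline these genes are described with no test, for the reason given above. Between ND-RHL and AE-PF, the log2 change was 0.33 ± 0.22 (SE) for Hspa1b (adjusted p = 0.261, limma) and 0.41 ± 0.18 for Hspa1a (adjusted p = 0.0851), and neither passed. Hspa1a passed without ND-RHL replicate 2 (adjusted p = 0.00534). Relative to the constitutive Hspa8, the Hspa1b level was 0.0287 ± 0.0109 in ND-RHL, 0.016 ± 0.00288 in AE-PF and 0.174 ± 0.0166 in saline lung, lower in every challenged library than in any saline library.

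Hspa1a and Hspa1b are single-exon genes on the minus strand of chromosome 17 (GRCm38, GENCODE M21), at chr17:34969190-34972156 and chr17:34956436-34959238, with 9951 bp between them. Their promoter windows from RefSeq (GRCm38.p6, 250 bases before the transcript start and 50 after) are shown because the pair moved together and their reads are hard to assign. The windows are at chr17:34972107-34972406 and chr17:34959189-34959488, both on the minus strand, and differ at 4 of 300 bases. Capitals mark 2 adjoining units of the heat-shock element, 104 bases before the start in both.
Hspa1a: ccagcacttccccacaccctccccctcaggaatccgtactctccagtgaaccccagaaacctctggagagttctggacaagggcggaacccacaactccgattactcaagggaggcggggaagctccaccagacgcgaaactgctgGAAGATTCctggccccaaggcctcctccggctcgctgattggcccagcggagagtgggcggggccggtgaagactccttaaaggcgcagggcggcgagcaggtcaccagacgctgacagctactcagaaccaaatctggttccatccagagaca
Hspa1b: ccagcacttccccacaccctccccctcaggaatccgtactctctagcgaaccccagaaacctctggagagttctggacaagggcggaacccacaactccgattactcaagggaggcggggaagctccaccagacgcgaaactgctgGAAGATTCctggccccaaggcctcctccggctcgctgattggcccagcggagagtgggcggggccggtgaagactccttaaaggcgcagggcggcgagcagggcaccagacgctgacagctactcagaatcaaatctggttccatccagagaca
The sources used here do not give how reads matching both copies were counted, so the split between them is uncertain. The Hspa1a to Hspa1b ratio was 0.369 ± 0.0677 in ND-RHL, 0.31 ± 0.0301 in AE-PF and 0.271 ± 0.018 in saline lung.

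**Figure D2:**
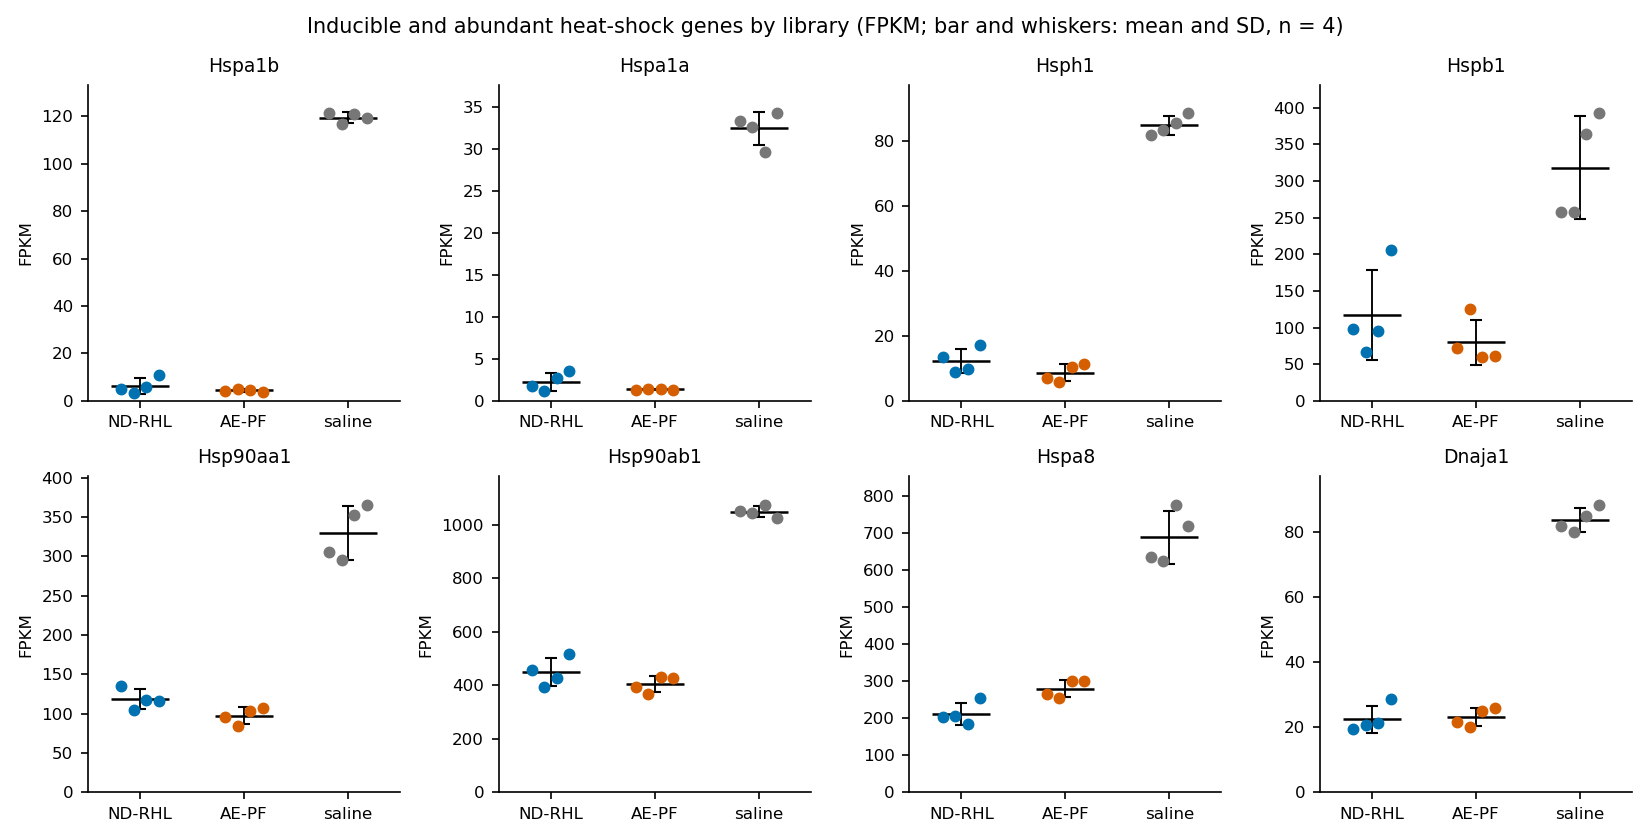
FPKM (vertical axes, from 0) of 8 heat-shock genes in each library of ND-RHL, AE-PF and saline lung; bars and whiskers are the mean and SD of 4 libraries. In each panel every challenged library lies below every saline library, and for Hspa1b, Hspa1a and Hsph1 the challenged libraries lie near the axis.

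The constitutive HSP70 genes had smaller log2 changes or did not pass. Hspa8, the abundant housekeeping HSP70 of the cytosol, had 203, 206, 186 and 255 FPKM in ND-RHL lung, 265, 256, 300.4 and 302 FPKM in AE-PF lung and 637, 626, 777 and 719 FPKM in saline lung. The 3 groups did not overlap, and ND-RHL lung was lowest. Its log2 change was -1.29 ± 0.11 in AE-PF against saline (adjusted p = 5.69e-06, limma), -0.41 ± 0.11 in ND-RHL against AE-PF (adjusted p = 0.0133) and -1.70 ± 0.11 in ND-RHL against saline (adjusted p = 1.52e-05). Hspa2, an HSP70 best known from the testis, averaged 6.72 ± 2.06 FPKM in ND-RHL, 6.42 ± 0.568 FPKM in AE-PF and 15.8 ± 1.45 FPKM in saline lung (SD, n = 4 each), and was lower than saline in both challenged groups (adjusted p = 0.000651 for ND-RHL and 5.73e-05 for AE-PF). Hspa9, the HSP70 of the mitochondrial matrix, averaged 43 ± 7.21 FPKM in ND-RHL, 50.6 ± 6.83 FPKM in AE-PF and 52.9 ± 5.6 FPKM in saline lung. It passed in no comparison (adjusted p = 0.687 in AE-PF against saline, 0.153 in ND-RHL against AE-PF and 0.112 in ND-RHL against saline). ND-RHL against saline passed in 3 of 22 alternatives (lowest adjusted p = 0.0242), and ND-RHL against AE-PF in 1 (adjusted p = 0.0375). Hspa14, an HSP70 that works at the ribosome, also passed in none, at 8 ± 0.288 FPKM in ND-RHL, 8.52 ± 0.558 FPKM in AE-PF and 7.99 ± 0.314 FPKM in saline lung.

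Hspa12b, a distant HSP70 relative enriched in endothelium, had 23.2, 22.8, 23.1 and 16.6 FPKM in ND-RHL lung, 16.6, 16.7, 26.2 and 27.6 FPKM in AE-PF lung and 43.2, 48.9, 40.4 and 41.3 FPKM in saline lung. It was lower than saline in AE-PF (log2 change -0.999 ± 0.17, adjusted p = 0.000499) and in ND-RHL lung (log2 change -0.99 ± 0.17, adjusted p = 0.00284). Endothelial markers summed to 701 to 985 FPKM in ND-RHL, 380.0 to 579 FPKM in AE-PF and 880.0 to 1009 FPKM in saline lung, and 7 of 8 were higher in ND-RHL than AE-PF lung. Hspa12b differed by 0.00 ± 0.17 between the challenged groups (adjusted p = 0.987). The part of endothelial cells in these values was not tested. The related Hspa12a fell to 3.46 ± 0.481 FPKM in ND-RHL and 3.19 ± 0.299 in AE-PF lung, against 4.32 ± 0.0953 in saline lung (adjusted p = 0.0386 for ND-RHL and 0.00333 for AE-PF). The ND-RHL call for Hspa12a was lost in 12 of 21 alternatives, among them the replicate number as a block (adjusted p = 0.0798) and leaving out ND-RHL replicate 2, 3 or 4, AE-PF replicate 3 or any saline library (adjusted p up to 0.0846).

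The HSP110 genes encode the exchange factors that release ADP from HSP70, and all 3 were lower in AE-PF than saline lung. Hsph1, the inducible member, had 13.5, 8.97, 9.78 and 17.2 FPKM in ND-RHL lung, 6.96, 5.86, 10.6 and 11.4 FPKM in AE-PF lung and 81.9, 83.5, 85.6 and 88.7 FPKM in saline lung. The challenged groups overlapped each other and lay well below saline. The log2 change was -3.19 ± 0.21 in AE-PF (adjusted p = 1.72e-06, limma) and -2.73 ± 0.21 in ND-RHL against saline (adjusted p = 3.87e-05). In ND-RHL against AE-PF it was 0.47 ± 0.21 and did not pass (adjusted p = 0.1), but it passed without AE-PF replicate 4 (adjusted p = 0.0473). Hspa4l had 11.6, 8.31, 8.95 and 7.68 FPKM in ND-RHL lung, 6.07, 5.5, 5.92 and 6.88 FPKM in AE-PF lung and 22.5, 21.6, 24.4 and 27.6 FPKM in saline lung. All ND-RHL libraries lay between the AE-PF and the saline libraries, and all 3 comparisons passed (log2 change in ND-RHL against AE-PF 0.50 ± 0.11, adjusted p = 0.00519). Hspa4 averaged 41.1 ± 2.58 FPKM in ND-RHL, 38.5 ± 3.34 FPKM in AE-PF and 47.1 ± 1.69 FPKM in saline lung. Its fall in AE-PF (log2 change -0.29 ± 0.07, adjusted p = 0.00351) did not pass when all libraries were set to the same FPKM total (adjusted p = 0.0713). Its log2 change in ND-RHL against saline, -0.20, did not pass (adjusted p = 0.057) but passed with the replicate number as a block (adjusted p = 0.0479).

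Hsph1 lies at chr5:149614287-149636376 on the minus strand of GRCm38. It is 1 of 4 of these genes, with Hspd1, Hspe1 and Dnajb6, whose RefSeq window holds 3 adjoining units of the heat-shock element (GAANNTTCNNGAA or TTCNNGAANNTTC, each the reverse complement of the other, so both strands were searched). The windows of Hspd1 and Hspe1 overlap by 285 of 300 bases, so they are largely the same stretch of DNA. The arrangement of 3 units occurred in 0.603% of 32851 mouse windows of the same length. The windows of Hsph1 (chr5:149636287-149636586, minus strand), Hspe1 (chr1:55087898-55088197, plus strand) and Dnajb6 (chr5:29735648-29735947, plus strand) are shown to set 2 genes that fell beside 1 that did not pass, with the matched letters in capitals.
Hsph1: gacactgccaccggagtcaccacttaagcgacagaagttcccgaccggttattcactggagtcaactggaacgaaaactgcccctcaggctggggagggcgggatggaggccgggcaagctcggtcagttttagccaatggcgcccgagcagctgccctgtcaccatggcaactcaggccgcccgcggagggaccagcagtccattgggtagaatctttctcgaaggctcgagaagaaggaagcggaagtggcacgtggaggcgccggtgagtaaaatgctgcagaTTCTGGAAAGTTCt
Hspe1: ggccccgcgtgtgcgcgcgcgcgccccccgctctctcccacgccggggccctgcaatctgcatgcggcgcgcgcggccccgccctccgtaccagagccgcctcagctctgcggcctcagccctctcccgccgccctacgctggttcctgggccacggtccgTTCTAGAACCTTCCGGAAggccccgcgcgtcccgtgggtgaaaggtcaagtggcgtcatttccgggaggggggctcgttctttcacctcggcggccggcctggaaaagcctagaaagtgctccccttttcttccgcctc
Dnajb6: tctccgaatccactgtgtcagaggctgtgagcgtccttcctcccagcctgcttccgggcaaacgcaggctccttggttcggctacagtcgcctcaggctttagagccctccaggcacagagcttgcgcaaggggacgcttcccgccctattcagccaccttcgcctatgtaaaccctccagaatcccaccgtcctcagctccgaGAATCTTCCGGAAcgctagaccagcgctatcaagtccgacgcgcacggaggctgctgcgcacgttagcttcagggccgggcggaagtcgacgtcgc
Hspe1 holds 2 overlapping matches. The match lies 36 bases after the start in Hsph1, and 89 and 46 bases before it in Hspe1 and Dnajb6. Dnajb6, a J protein that suppresses aggregation, averaged 17.5 ± 1.13 FPKM in ND-RHL, 17.7 ± 0.721 FPKM in AE-PF and 17.9 ± 0.591 FPKM in saline lung and passed in no comparison (adjusted p = 0.8, 0.703 and 0.843 in ND-RHL against AE-PF, ND-RHL against saline and AE-PF against saline). RefSeq windows were found for 59 of the 75 genes. Of these, 16 (27.1%) held at least 2 adjoining units (GAANNTTC or TTCNNGAA), a pattern also found in 17% of 27025 genes with a window. Among the 15 of the 16 that were tested, 11 were lower and 1 higher in AE-PF than saline lung. Hspa1a and Hspa1b count among the 11, although above they are given against saline with no test. Among the 38 tested genes whose window held no such pattern, 15 were lower and 5 higher. Genes without a window, the abundant Hsp90ab1, Hspa8 and Hsp90aa1 among them, are in neither count. Over all genes 30.2% were lower and 26.4% higher. A match describes the letters and does not show binding.

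Both HSP90 genes were lower in the challenged groups. Hsp90ab1, the constitutive form and the highest of all 75 genes, had 457, 395, 429 and 515 FPKM in ND-RHL lung, 392, 366, 432 and 428 FPKM in AE-PF lung and 1051, 1043, 1074 and 1023 FPKM in saline lung. The challenged groups overlapped and reached at most 515 FPKM, against at least 1023 FPKM in saline libraries. The log2 change was -1.37 ± 0.09 in AE-PF against saline (adjusted p = 1.89e-06, limma), -1.23 ± 0.09 in ND-RHL against saline (adjusted p = 3.87e-05) and 0.15 ± 0.09 in ND-RHL against AE-PF, which did not pass (adjusted p = 0.232). Hsp90aa1, the stress-inducible form, had 135, 105, 118 and 117 FPKM in ND-RHL lung, 95.9, 83.9, 103 and 108 FPKM in AE-PF lung and 306, 296, 352 and 366 FPKM in saline lung. It fell by 1.75 in AE-PF against saline on the log2 scale (SE 0.10, adjusted p = 1.05e-06). Its log2 change of 0.28 ± 0.10 in ND-RHL against AE-PF passed only just (adjusted p = 0.0499). That call was lost in 16 of 22 alternatives (adjusted p up to 0.21), among them leaving out any library other than ND-RHL replicate 2 or AE-PF replicate 4. The ratio of Hsp90aa1 to Hsp90ab1 was 0.266 ± 0.0289 in ND-RHL, 0.241 ± 0.00975 in AE-PF and 0.315 ± 0.0343 in saline lung.

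Among the cytosolic J proteins, the general HSP70 partners Dnaja1 and Dnajb1 were lower than saline in both challenged groups. Dnaja1, which loads clients onto HSP70 and helps fold steroid receptors, had 19.6, 20.7, 21.2 and 28.6 FPKM in ND-RHL lung, 21.6, 20.2, 24.9 and 26 FPKM in AE-PF lung and 81.6, 80, 84.8 and 88.2 FPKM in saline lung. The challenged groups overlapped, and the log2 change was -1.82 ± 0.11 in AE-PF against saline (adjusted p = 1.17e-06) and -1.86 ± 0.11 in ND-RHL against saline (adjusted p = 7.19e-06). Dnajb1, the stress-inducible HSP40, averaged 17.8 ± 6.1 FPKM in ND-RHL, 15.4 ± 2 FPKM in AE-PF and 44.5 ± 1.34 FPKM in saline lung and was lower than saline in both (adjusted p = 0.000748 for ND-RHL and 3.77e-05 for AE-PF). Dnajb4, a close relative of Dnajb1, fell by 0.35 in ND-RHL and by 0.49 in AE-PF against saline on the log2 scale (adjusted p = 0.0111 and 0.000337). Dnaja2, which differs from Dnaja1 in its clients, averaged 48.1 ± 2.73 FPKM in ND-RHL, 51.6 ± 2.15 FPKM in AE-PF and 49.3 ± 1.39 FPKM in saline lung and passed in no comparison.

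Dnaja4 and Dnajb2 lay between AE-PF and saline levels in ND-RHL lung. Dnaja4 had 10.4, 6.92, 7.89 and 10.6 FPKM in ND-RHL lung, 4.57, 4.39, 5.43 and 5.65 FPKM in AE-PF lung and 21.2, 21.5, 18.4 and 21 FPKM in saline lung. The 3 groups did not overlap, with ND-RHL in the middle (log2 change in ND-RHL against AE-PF 0.71 ± 0.12, adjusted p = 0.00115, and against saline -1.13 ± 0.12, adjusted p = 0.00028). Dnajb2, a J protein that also binds ubiquitin and sorts clients to the proteasome, had 16.1, 14.9, 15.9 and 16.9 FPKM in ND-RHL lung, 10.5, 10.3, 13.9 and 12.4 FPKM in AE-PF lung and 28.4, 28.8, 28.9 and 30.7 FPKM in saline lung. It showed the same order without overlap (ND-RHL against AE-PF 0.41 ± 0.08, adjusted p = 0.00251). Dnajb13, which belongs to the radial spokes of motile cilia, had 5.05, 4.35, 5.13 and 5.2 FPKM in ND-RHL lung, 3.38, 1.74, 4.2 and 4.11 FPKM in AE-PF lung and 4.44, 4.21, 4.65 and 4.21 FPKM in saline lung. It was higher in ND-RHL than AE-PF lung (adjusted p = 0.0359), a call lost in 9 of 21 alternatives, among them leaving out ND-RHL replicate 1, 3 or 4 or AE-PF replicate 1 (adjusted p up to 0.0883). Ciliated cell markers moved with it: they summed to 131 to 242 FPKM in ND-RHL, 79.6 to 116 FPKM in AE-PF and 196 to 246 FPKM in saline lung, and 10 of 11 were higher in ND-RHL than AE-PF. Their part in the result was not tested.

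Of the BAG proteins, Bag3 had the largest log2 change against saline in both challenged groups. It directs clients to autophagy together with HSP70 and Hspb8, and had 23.9, 23.5, 27.1 and 30.9 FPKM in ND-RHL lung, 27, 29.2, 28.3 and 28.4 FPKM in AE-PF lung and 51, 50.2, 53.2 and 51.5 FPKM in saline lung. The log2 change was -0.85 ± 0.07 in AE-PF against saline (adjusted p = 6.55e-06) and -0.95 ± 0.07 in ND-RHL against saline (adjusted p = 3.88e-05). In ND-RHL against AE-PF it was -0.10 ± 0.07 and did not pass (adjusted p = 0.294), but it passed without ND-RHL replicate 4 (adjusted p = 0.0255). Bag1, the most abundant of the family and a link between HSP70 and the proteasome, averaged 99.9 ± 3.05 FPKM in ND-RHL, 87.7 ± 2.9 FPKM in AE-PF and 115 ± 5.57 FPKM in saline lung. It was lower than saline in AE-PF lung (adjusted p = 8.29e-05) and higher in ND-RHL than AE-PF (adjusted p = 0.0129). The second call did not pass at equal FPKM totals (adjusted p = 0.342) or with limma-voom (adjusted p = 0.0621). Bag5 was lower in ND-RHL than AE-PF and saline lung, at 18.4 ± 0.423 FPKM in ND-RHL, 21.4 ± 1.11 FPKM in AE-PF and 22.1 ± 1.57 FPKM in saline lung (adjusted p = 0.0116 and 0.00999), and Bag2 passed in no comparison.

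The mitochondrial chaperonin fell as a pair. Hspd1 (HSP60), its barrel, had 60.5, 49.6, 45.9 and 68.8 FPKM in ND-RHL lung, 51.2, 51.7, 54.7 and 55.2 FPKM in AE-PF lung and 121, 107, 119 and 135 FPKM in saline lung. Hspe1 (HSP10), its lid, had 26.3, 21.6, 23 and 31.5 FPKM in ND-RHL lung, 22, 24.3, 24.5 and 25.7 FPKM in AE-PF lung and 48.3, 44.6, 56 and 54.4 FPKM in saline lung. For both genes every challenged library lay below every saline library, and the ND-RHL range enclosed the AE-PF range. The log2 change was -1.16 ± 0.11 and -1.04 ± 0.11 in AE-PF against saline (adjusted p = 1.3e-05 and 2.01e-05), and -1.10 ± 0.11 and -0.97 ± 0.11 in ND-RHL against saline (adjusted p = 0.000216 and 0.00036). In ND-RHL against AE-PF neither passed (adjusted p = 0.699 and 0.636). The genes lie head to head on chromosome 1 (GRCm38), Hspd1 at chr1:55077835-55088243 on the minus and Hspe1 at chr1:55088132-55091307 on the plus strand. They share 112 bases, and since the strand setting of the counting is not stated, reads there cannot be told apart.

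Of the 9 members located in mitochondria, 4 were lower and 1 higher in AE-PF than saline lung, against 30.2% and 26.4% of all genes. Dnaja3 averaged 12.6 ± 1.49 FPKM in ND-RHL, 10.6 ± 0.959 FPKM in AE-PF and 15.2 ± 0.416 FPKM in saline lung. It was lower than saline in AE-PF lung (adjusted p = 0.000465, limma) and in ND-RHL lung (adjusted p = 0.0434). The second call was lost in 11 of 22 alternatives, among them the replicate block (adjusted p = 0.0557). Dnajc28 had 2.82, 2.38, 2.7 and 2.84 FPKM in ND-RHL lung, 1.35, 1.21, 1.92 and 1.55 FPKM in AE-PF lung and 3.88, 3.83, 3.21 and 2.92 FPKM in saline lung, was lower in AE-PF than saline lung (log2 change -0.83 ± 0.10, adjusted p = 4.74e-05) and higher in ND-RHL than AE-PF (log2 change 0.56 ± 0.10, adjusted p = 0.00143). ND-RHL against saline did not pass (adjusted p = 0.0762), but passed in 3 of 21 alternatives (lowest adjusted p = 0.0211). Dnajc15, known as a brake on respiratory complex I, averaged 3.91 ± 0.457 FPKM in ND-RHL, 2.63 ± 0.31 FPKM in AE-PF and 3.18 ± 0.3 FPKM in saline lung and was higher in ND-RHL than AE-PF lung (adjusted p = 0.0025). Dnajc19, a J protein of the mitochondrial import motor, averaged 4.53 ± 0.345 FPKM in ND-RHL, 4.21 ± 0.316 FPKM in AE-PF and 3.46 ± 0.289 FPKM in saline lung and was above saline in both challenged groups (adjusted p = 0.00964 for ND-RHL and 0.0159 for AE-PF).

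Of 6 tested small heat-shock genes, Hspb1 and Hspb8 fell in AE-PF lung. Hspb1 (HSP25 in the mouse, HSP27 in humans), which binds actin and unfolded proteins, had 98.7, 67.1, 94.9 and 206 FPKM in ND-RHL lung, 71.7, 125, 60.1 and 61.6 FPKM in AE-PF lung and 258, 258, 364 and 392 FPKM in saline lung. The highest value of each challenged group was in the library with high squamous and skeletal muscle markers, and even these lay below the lowest saline library. The log2 change was -2.02 ± 0.33 in AE-PF against saline (adjusted p = 0.000349) and -1.54 ± 0.33 in ND-RHL against saline (adjusted p = 0.00835), and both passed in every alternative run, also without those libraries. Hspb8, the partner of Bag3, had 40.7, 31.2, 32.2 and 59.8 FPKM in ND-RHL lung, 35.1, 40.9, 34.2 and 34.8 FPKM in AE-PF lung and 54.4, 47.3, 57.3 and 62.4 FPKM in saline lung. It was lower in AE-PF than saline lung (log2 change -0.59 ± 0.17, adjusted p = 0.0126). ND-RHL against saline did not pass (adjusted p = 0.077), but passed without ND-RHL replicate 4 (adjusted p = 0.0045).

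Hspb6 (HSP20), a small heat-shock protein of muscle, had 7.72, 2.85, 5.07 and 36.2 FPKM in ND-RHL lung, 3.3, 6.69, 2.44 and 2.38 FPKM in AE-PF lung and 5.76, 5.02, 5.5 and 7.69 FPKM in saline lung. Replicate 4 of ND-RHL stood far above all others and replicate 2 of AE-PF above its own group. No comparison passed with all libraries weighted equally (adjusted p = 0.349 in AE-PF against saline). AE-PF against saline passed without that pair (adjusted p = 0.00968) and with array weights (adjusted p = 0.0317), and ND-RHL against AE-PF passed without ND-RHL replicate 2 (adjusted p = 0.0465). Hspb7, the small heat-shock protein of heart and skeletal muscle, had 17.1, 3.69, 7.34 and 24.9 FPKM in ND-RHL lung, 15.1, 35.4, 6.64 and 6.96 FPKM in AE-PF lung and 12.7, 9.61, 8.51 and 17.1 FPKM in saline lung and passed in none (adjusted p = 0.863 in AE-PF against saline). Skeletal muscle markers summed to 24.7, 4.84, 8.22 and 1829.7 FPKM in ND-RHL, 5.09, 747, 4.23 and 4.24 FPKM in AE-PF and 18.6, 8.76, 141 and 16 FPKM in saline libraries. Cardiac muscle markers, known from the muscle sleeve of pulmonary veins in mice, summed to 787, 152, 348 and 532 FPKM in ND-RHL, 57.7, 65.7, 43.9 and 34.2 FPKM in AE-PF and 494, 387, 366 and 654 FPKM in saline. ND-RHL replicate 4 and AE-PF replicate 2 were the highest of their groups by Hspb6 and by the skeletal muscle sum. In saline lung replicate 3 had the highest skeletal muscle sum, while its Hspb6 was second lowest and its Hspb7 lowest of the group. The part of muscle in these values was not tested.

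**Figure D3:**
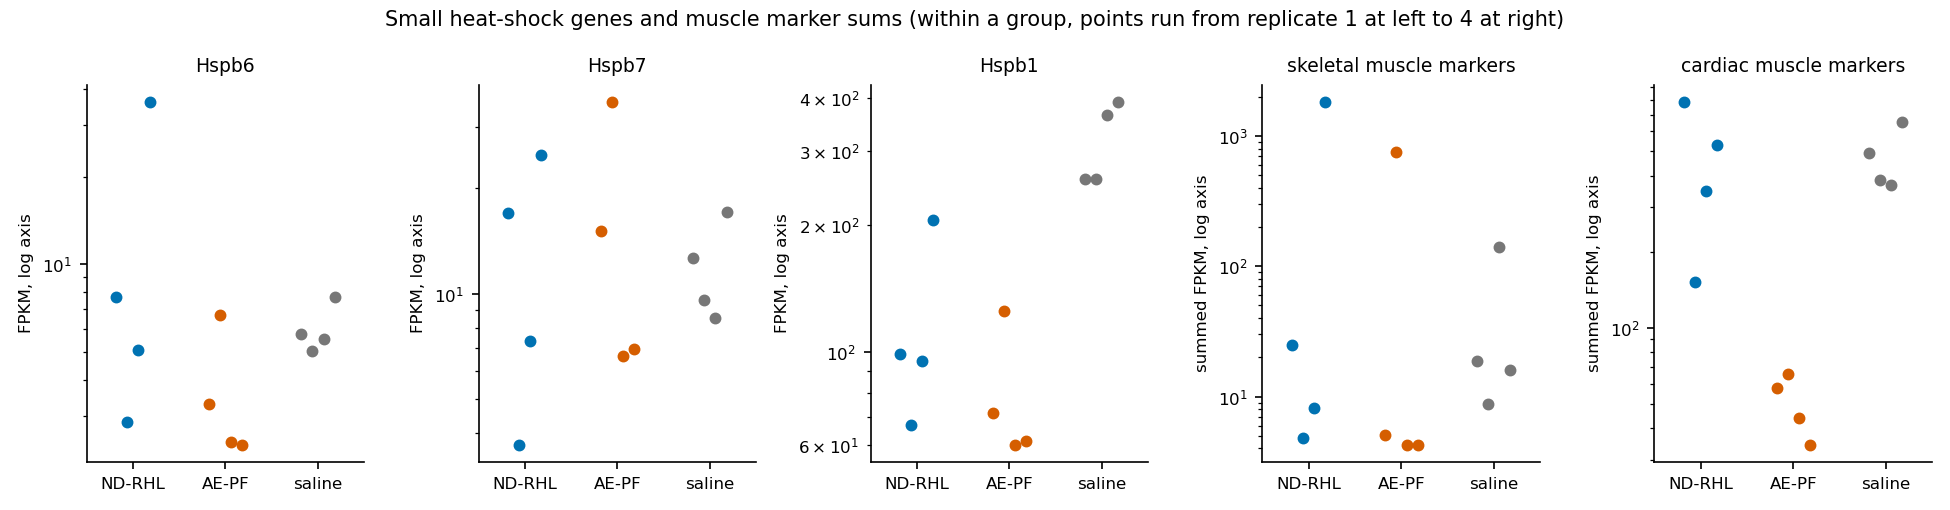
FPKM of Hspb6, Hspb7 and Hspb1 and summed FPKM of 8 skeletal and 10 cardiac muscle markers in each library (log axes; points run from replicate 1 at left to 4 at right within ND-RHL, AE-PF and saline). ND-RHL replicate 4 and AE-PF replicate 2 are the highest of their groups for Hspb6, Hspb7, Hspb1 and the skeletal muscle markers, while saline replicate 3 is highest of its group for the skeletal muscle markers and lowest for Hspb7.

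Of the 9 genes that rose in AE-PF lung, 5 encode ER proteins. Of 9 members located in the ER, 5 were higher and none lower in AE-PF than saline lung, and of the 58 tested members outside it 4 were higher and 30 lower, against 26.4% higher and 30.2% lower over all genes. Locations were assigned by hand with results known, and these counts are a description. Dnajc10 (ERdj5), an ER reductase that opens disulfides of misfolded proteins, had 26.4, 27.2, 25.9 and 22.9 FPKM in ND-RHL lung, 38.5, 38.2, 32.4 and 32.8 FPKM in AE-PF lung and 21.9, 23.3, 28.3 and 27.3 FPKM in saline lung. It rose in AE-PF against saline (log2 change 0.48 ± 0.09, adjusted p = 0.0011) and fell in ND-RHL against AE-PF (log2 change -0.45 ± 0.09, adjusted p = 0.00286). Against saline, ND-RHL did not pass (adjusted p = 0.872). Hspa13, an HSP70 of microsomes, had 8.08, 8.96, 7.54 and 7.75 FPKM in ND-RHL lung, 11.3, 10.4, 10 and 9.83 FPKM in AE-PF lung and 8.14, 7.71, 8.15 and 9.12 FPKM in saline lung and the same calls (adjusted p = 0.00275 in AE-PF against saline and 0.0027 in ND-RHL against AE-PF). Dnajc25 averaged 3.08 ± 0.311 FPKM in ND-RHL, 4.2 ± 0.719 FPKM in AE-PF and 3 ± 0.142 FPKM in saline lung, also higher in AE-PF than saline and lower in ND-RHL than AE-PF (adjusted p = 0.00539 and 0.0123). Dnajb12, an ER membrane J protein of protein degradation, rose in AE-PF and did not pass in ND-RHL against AE-PF (13.1 ± 0.728 FPKM in ND-RHL, 13.6 ± 0.783 FPKM in AE-PF and 11.3 ± 0.211 FPKM in saline lung; adjusted p = 0.00191 and 0.509).

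Outside the ER, Dnajc13 (RME-8), which sorts cargo on endosomes, had 7.93, 7.83, 7.73 and 7.85 FPKM in ND-RHL lung, 9.95, 10.2, 9.74 and 9.34 FPKM in AE-PF lung and 7.71, 7.42, 8.23 and 7.85 FPKM in saline lung. Every AE-PF library lay above all others, and ND-RHL and saline libraries overlapped (log2 change 0.30 ± 0.04 in AE-PF against saline, adjusted p = 0.000166, and -0.29 ± 0.04 in ND-RHL against AE-PF, adjusted p = 0.000479). Dnajc5, the cysteine string protein of secretory vesicles, averaged 25.1 ± 1.45 FPKM in ND-RHL, 29.2 ± 0.699 FPKM in AE-PF and 22.4 ± 0.993 FPKM in saline lung, higher in AE-PF than saline and lower in ND-RHL than AE-PF (adjusted p = 0.000102 and 0.00629). Dnajc2, which works with Hspa14 on nascent chains at the ribosome, averaged 6.16 ± 0.531 FPKM in ND-RHL, 7.49 ± 0.436 FPKM in AE-PF and 5.61 ± 0.3 FPKM in saline lung with the same calls (adjusted p = 0.0006 and 0.00988). None of the ER chaperones left out by the name rule was called higher in AE-PF than saline lung. Of these 5 genes, 3 were lower, against 30.2% lower and 26.4% higher over all genes. Hspa5 (BiP), the HSP70 of the ER, averaged 131 ± 14.4 FPKM in ND-RHL, 181 ± 8.55 FPKM in AE-PF and 226 ± 19.9 FPKM in saline lung.

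**Figure D4:**
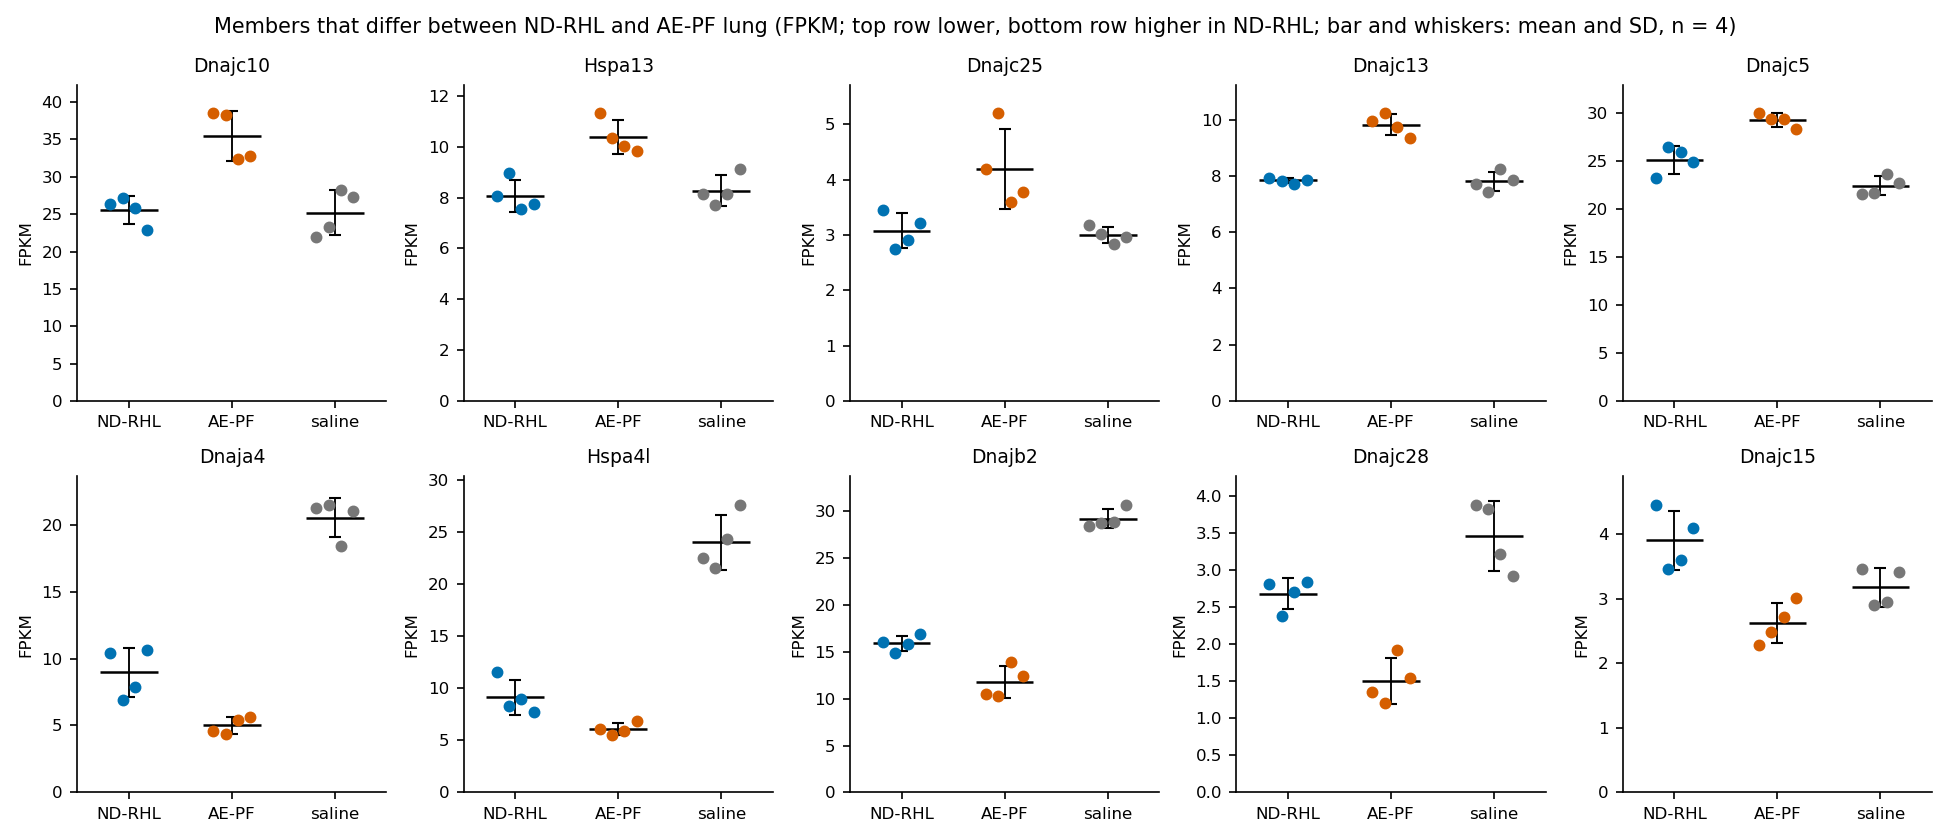
FPKM (vertical axes, from 0) of 10 genes called in ND-RHL against AE-PF lung, by library; bars and whiskers are the mean and SD of 4 libraries. In the top row AE-PF libraries lie above both other groups, and in the bottom row ND-RHL libraries lie above AE-PF libraries.

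Between ND-RHL and untreated AE-PF lung, 24 of the chaperone genes differed, in neither direction a larger share than over all genes. Of 67 tested, 16 were higher, 8 lower and 43 did not pass, against 24.3% higher and 17.4% lower over all genes, and 23.9% and 11.9% here. The median log2 change was 0.09 for the chaperone genes and 0.06 over all genes. In 10 genes every ND-RHL library lay above every AE-PF library and in 9 every one lay below, against 21.2% and 15.6% of all genes. This comparison shares the AE-PF libraries with AE-PF against saline, so their values are set side by side and not correlated. Cell type markers also differed in this comparison: all 8 alveolar type 2, 7 of 8 endothelial, 10 of 11 ciliated and 8 of 10 cardiac muscle markers were higher in ND-RHL than AE-PF lung, and 6 of 8 macrophage and 9 of 11 cell cycle genes were lower. Their part in the chaperone counts was not tested. Among the genes that passed, the 5 largest rises were those of Dnaja4, Dnajc28, Hspa4l, Dnajb13 and Dnajc15, and the 5 largest falls those of Dnajc10, Hspa8, Dnajc25, Hspa13 and Dnajc13. The split depended on scaling: at equal FPKM totals, 6 were higher and 13 lower, and with limma-voom 10 and 11. Over all genes the split moved too, to 15.6% higher and 25.5% lower at equal totals and 20.03% and 21.5% with limma-voom. The count of higher genes was 9 without AE-PF replicate 1 and 9 without ND-RHL replicate 3. Of the 24 calls, 14 passed in every alternative, the 8 lower ones and the rises of Dnaja4, Hspa4l, Dnajb2, Dnajc7, Dnajc28 and Dnajc15.

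ND-RHL lung, like AE-PF lung, had lower levels of part of the chaperone genes than saline lung. Of 67 genes, 24 were lower and 6 higher, and 37 did not pass. Over all genes the shares were 8.65% lower and 13.3% higher, against 35.8% and 8.96% of the chaperone genes. Without Hspa1a and Hspa1b, 22 of 65 were lower (33.8%), and the median log2 change was -0.04, against 0.03 over all genes. Deviations of same-numbered ND-RHL and saline libraries from their group means correlated at 0.114 to 0.397. Differently numbered pairs reached 0.316 (ND-RHL replicate 3 with saline replicate 2), so a pairing is uncertain. With the replicate number as a block, 23 genes were lower and 3 higher. Hspa12a, Dnaja3, Bag4, Dnajc5 and Dnajc8 then missed the threshold (adjusted p = 0.0798, 0.0557, 0.0765, 0.0636 and 0.087), and Hspa4 passed. In 26 genes every ND-RHL library lay below every saline library and in 6 every one lay above, against 11.8% and 18.1% of all genes. The inducible and abundant genes described above were among the 24: Hsph1, Hspb1, Hsp90ab1, Hsp90aa1, Hspa8, Dnaja1, Dnajb1, Bag3, Hspd1 and Hspe1. Among cell type markers, 0 of 8 alveolar type 2, 1 of 8 endothelial and 1 of 11 ciliated markers passed the threshold between ND-RHL and saline lung. Their median log2 changes were -0.06, -0.24 and -0.31. Of the others, 5 of 8 macrophage and all 11 cell cycle genes were higher in ND-RHL. The part of cell types in the chaperone counts was not tested. Of the 6 higher genes, Dnajc19 passed in every alternative. Dnajb12, Dnajc27, Bag4, Dnajc8 and Dnajc5 lost the call in 4 to 16 of 21 or 22, each of them without saline replicate 1. Dnajc8, a splicing-associated J protein, averaged 51.9 ± 3.68 FPKM in ND-RHL, 45.4 ± 2.7 FPKM in AE-PF and 45.3 ± 1.76 FPKM in saline lung, and Dnajc27 and Bag4 averaged 4.17 ± 0.33 and 2.06 ± 0.146 FPKM in ND-RHL against 3.49 ± 0.248 and 1.67 ± 0.0582 FPKM in saline lung.

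**Figure D5:**
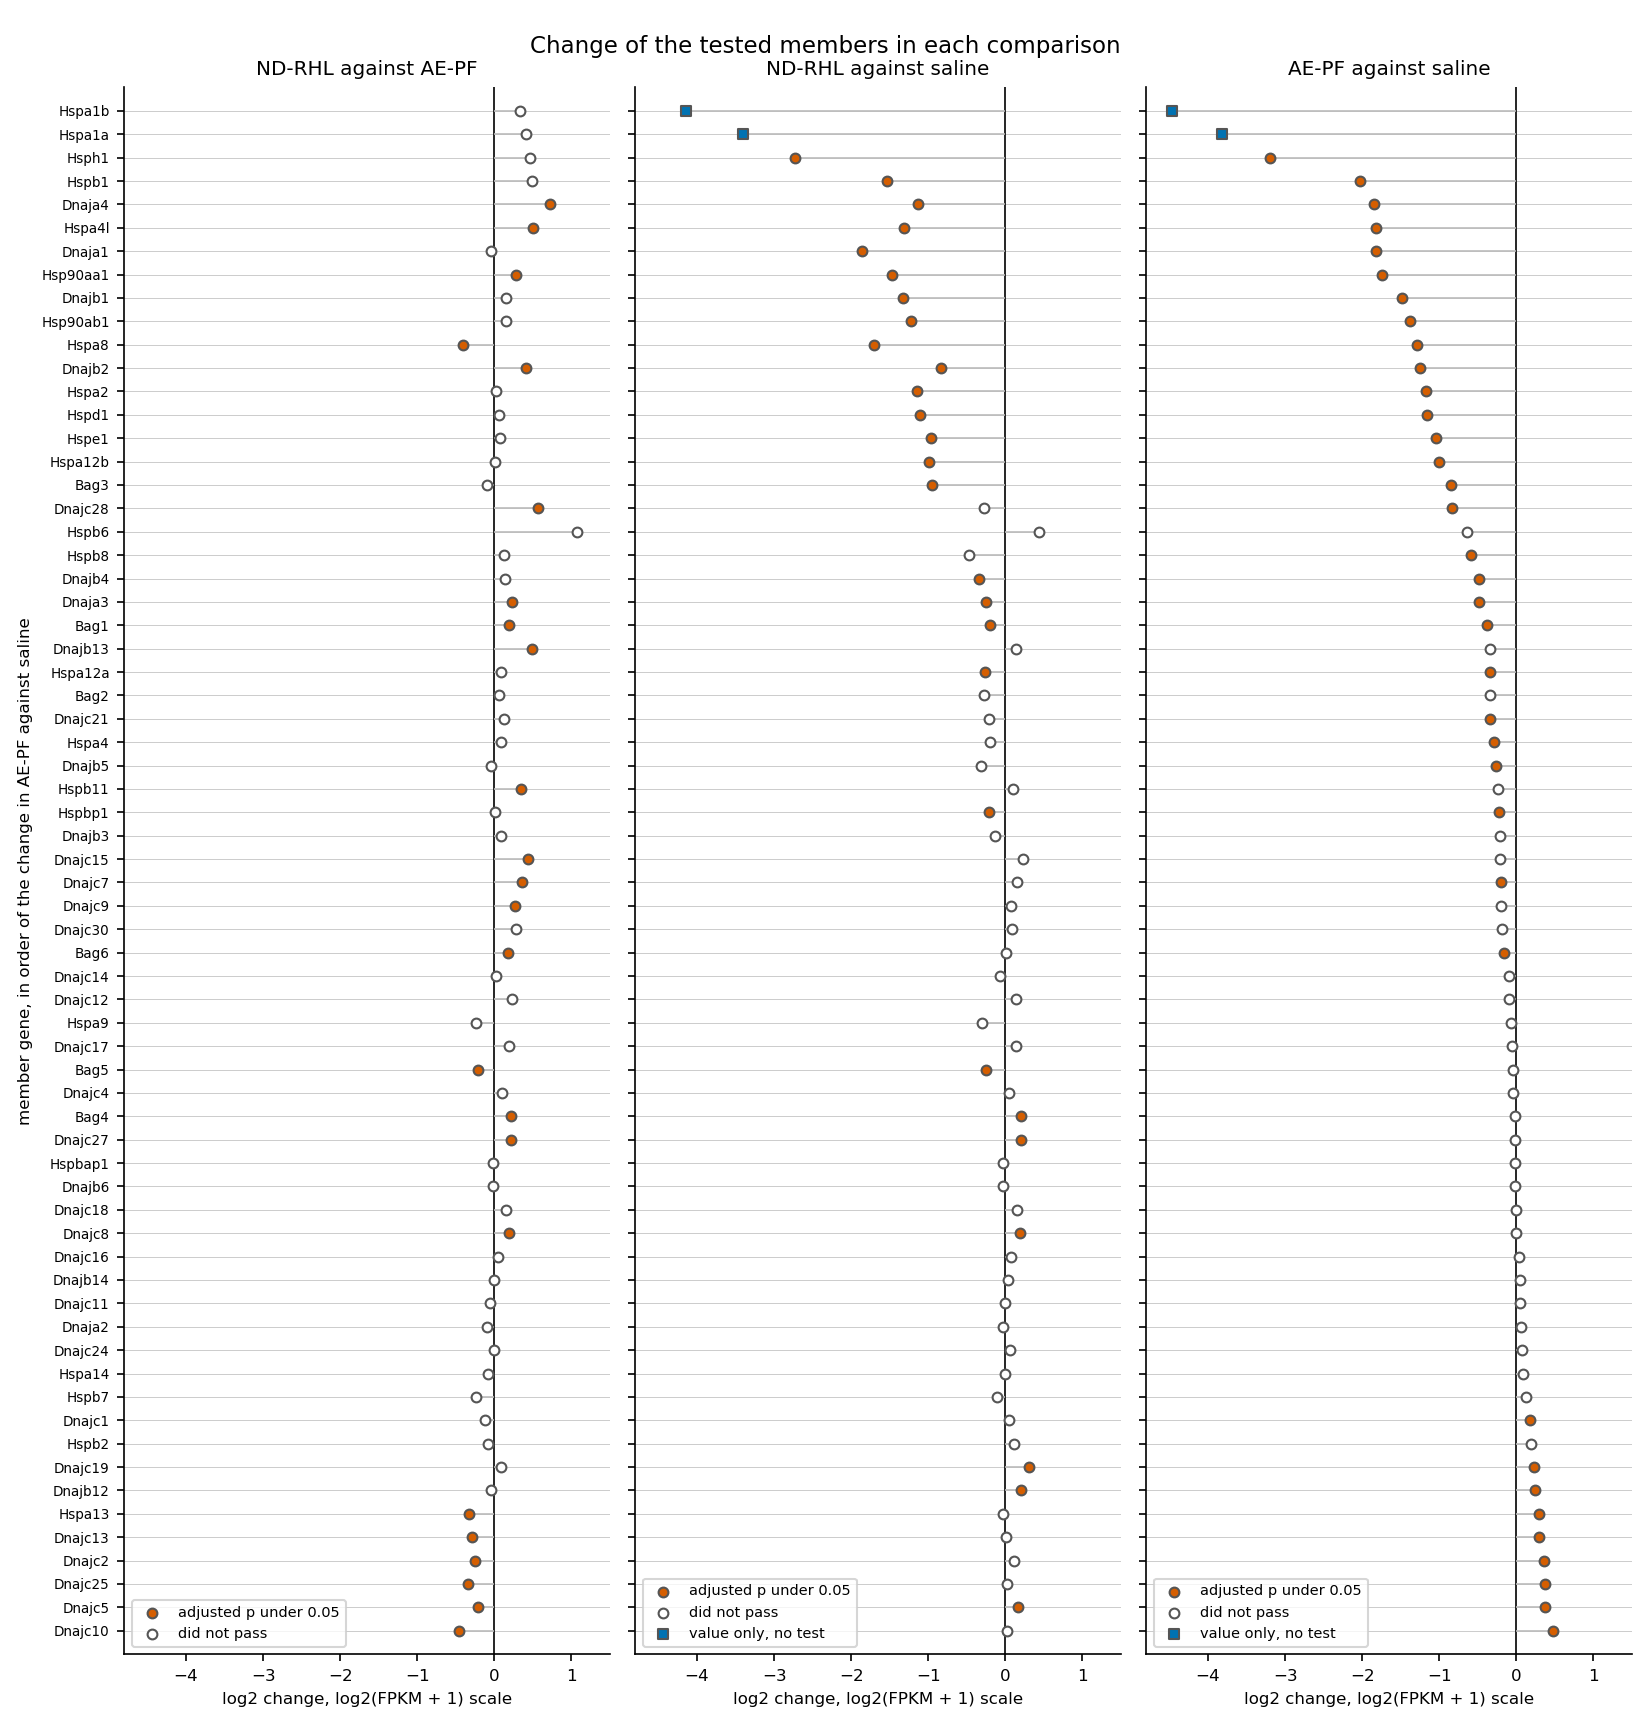
Log2 change on the log2(FPKM + 1) scale (horizontal axes) of 66 of the 67 tested genes, sorted by the change in AE-PF against saline, with filled points where the adjusted p was under 0.05 and squares for values given with no test. The largest falls against saline are those of Hspa1b, Hspa1a and Hsph1 in both challenged groups, and most points of ND-RHL against AE-PF lie near 0.

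Most of the listed HSP90 partners outside the named families were lower in AE-PF than saline lung. Of 17 HSP90 co-chaperones and adaptors, 13 were lower and 1 higher in AE-PF than saline lung, 4 higher and 1 lower in ND-RHL than AE-PF, and 9 lower and none higher in ND-RHL than saline. Over all genes 30.2% were lower and 26.4% higher in AE-PF than saline lung, 24.3% higher and 17.4% lower in ND-RHL than AE-PF, and 8.65% lower and 13.3% higher in ND-RHL than saline. Cdc37, Cdc37l1 and Sugt1 did not pass in AE-PF against saline (adjusted p = 0.951, 0.754 and 0.859). The median log2 change of the 17 in AE-PF against saline was -0.41. Their summed level was 317 to 360.5 FPKM in ND-RHL, 313 to 327 FPKM in AE-PF and 614 to 647 FPKM in saline lung. Stip1 (HOP), which passes clients from HSP70 to HSP90, averaged 44.1 ± 5.75 FPKM in ND-RHL, 48.6 ± 3.08 FPKM in AE-PF and 137 ± 10.2 FPKM in saline lung. Fkbp4 (FKBP52), which promotes transport of steroid receptors, averaged 52.1 ± 3.63 FPKM in ND-RHL, 28 ± 5.9 FPKM in AE-PF and 145 ± 3.33 FPKM in saline lung and was higher in ND-RHL than AE-PF lung (log2 change 0.89 ± 0.12, adjusted p = 0.000298). Ahsa1, the activator of the HSP90 ATPase, averaged 13.8 ± 1.15 FPKM in ND-RHL, 12.6 ± 0.761 FPKM in AE-PF and 27.7 ± 1.39 FPKM in saline lung, and Chordc1 averaged 8.56 ± 1.32 FPKM in ND-RHL, 7.76 ± 1.22 FPKM in AE-PF and 22.9 ± 2.54 FPKM in saline lung. The 1 higher gene was Fkbp5, which holds the glucocorticoid receptor inactive, at 3.24 ± 0.849 FPKM in ND-RHL, 24.1 ± 15.2 FPKM in AE-PF and 2.57 ± 0.25 FPKM in saline lung. These partners were picked from the list after their values were seen.

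Other parts of the folding system were counted in the same way. Over all genes 26.4% were higher and 30.2% lower in AE-PF than saline lung. The all-gene shares were 24.3% higher and 17.4% lower in ND-RHL than AE-PF, and 13.3% higher and 8.65% lower in ND-RHL than saline. Of 14 genes of the cytosolic chaperonin TRiC and of prefoldin, which fold actin and tubulin, 2 were higher and 1 lower in AE-PF than saline lung, 2 higher and 5 lower in ND-RHL than AE-PF, and 1 higher and 5 lower in ND-RHL than saline (4 lower with the replicate number as a block). Of 6 HSP70 regulators outside the families, 1 was higher and 2 lower in AE-PF than saline, and St13, which steadies HSP70 on its client, averaged 13.2 ± 1.27 FPKM in ND-RHL, 15.3 ± 0.107 FPKM in AE-PF and 24.4 ± 1.32 FPKM in saline lung. Among 4 tested heat-shock factors and regulators, Hsf1 averaged 5.87 ± 0.379 FPKM in ND-RHL, 5.08 ± 0.904 FPKM in AE-PF and 7.84 ± 0.207 FPKM in saline lung and was lower than saline in AE-PF (adjusted p = 0.000413) and ND-RHL lung (adjusted p = 0.0173). Hsf2 averaged 2.72 ± 0.179 FPKM in ND-RHL, 2.45 ± 0.233 FPKM in AE-PF and 2.35 ± 0.148 FPKM in saline lung and passed in none. Of 13 other genes known as heat-shock factor targets, 3 were higher and 3 lower in AE-PF than saline lung. Cryab, a small heat-shock protein named apart from the Hspb genes, averaged 113 ± 6.86 FPKM in ND-RHL, 79 ± 17.1 FPKM in AE-PF and 110.4 ± 9.87 FPKM in saline lung, and the polyubiquitin gene Ubb averaged 521 ± 19.7 FPKM in ND-RHL, 524 ± 6.12 FPKM in AE-PF and 537 ± 30.8 FPKM in saline lung and passed in no comparison. RNA level does not show HSF1 activity.

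The 8 genes that did not reach the filter were Dnajb7, Dnajb8, Dnajc22, Dnajc5b, Dnajc6, Hspa1l, Hspb3 and Hspb9, with values of 0 to 1.98 FPKM over all libraries. Hspa1l, an HSP70 of the testis whose start lies 546 bp from that of Hspa1a, had 0.156, 0.376, 0.334 and 0.279 FPKM in ND-RHL, 0.261, 0.47, 0.143 and 0.112 FPKM in AE-PF and 0.299, 0.458, 0.341 and 0.322 FPKM in saline lung, values too low to compare. Hspb9 had 0.378, 0.938, 0.355 and 0.475 FPKM in ND-RHL, 1.78, 1.98, 1.14 and 0.989 FPKM in AE-PF and 0.445, 0.149, 0.342 and 0.505 FPKM in saline lung. Its AE-PF libraries lay above the others, with no test.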

How the data were processed

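The authors deposited 1 table of FPKM values for 35599 genes in 12 libraries. Per the labels' protocols, polyadenylated RNA was made into NEBNext Ultra libraries and sequenced on a DNBSEQ-G400. The builds GRCm38 and mm10 and, with no stated role, DESeq2 1.30.1, Subread 2.0.1 with featureCounts, STAR 2.7.9a, FastQC and Trim Galore 0.6.6 are listed per the submitters' processing notes. Groups came from the sample titles. Of the tested genes, 1 is included in the counts and sums and is otherwise not reported here.

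Fragments were recovered from FPKM (35599 genes whole within 1e-05) for depth and 1 alternative. Values on the log2(FPKM + 1) scale were fitted by limma 3.58.1 (R 4.3.3, variance trend) for 15164 genes with at least 1 FPKM in at least 4 libraries. All 12 libraries shared 1 fit with 9 residual degrees of freedom; tests were 2-sided, adjusted by Benjamini-Hochberg, with a threshold of 0.05. Log2 changes understate those of low genes. The fit was tested on simulated data. Depth intervals and floors cover counting error only.

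Genes and lists were chosen with earlier results of these data known. Named genes were 22 fixed ones, the 5 largest changes per direction and comparison, and the 3 highest; families and locations were assigned by hand. Other genes are named to complete a family and were chosen after their values were seen. Coordinates are from GENCODE M21, since positions in the table differed from it. Deviations of same-numbered ND-RHL and saline libraries had correlations of 0.114 to 0.397 over 4 pairs, and differently numbered pairs reached 0.316. The source of the pairing is the replicate number in the titles, so it is uncertain. Blocked values are given where they change a call there. Other groups were not paired. Alternatives were another pseudocount, filters, scalings, limma-voom, array weights, a replicate block, fits of 2 groups and leaving out libraries.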

Additional observations from a re-analysis of the deposited data

Results flagged for a closer look

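Within groups of 4, 5 of 108 gene and group combinations of the named genes had a library far from the other 3 (past Dixon's critical value for 4 samples). Chance flags about 1 in 20. Hspb6 in ND-RHL was highest in replicate 4, at 36.2 FPKM, and Hspa12b in ND-RHL was lowest in the same library, at 16.6 FPKM. In AE-PF, Hspb8 and Dnajb4 were highest in replicate 2, at 40.9 and 11.7 FPKM. These are the libraries with the high squamous and skeletal muscle marker sums, and their part was not tested. Dnaja4 in saline was lowest in replicate 3, at 18.4 FPKM, still above every challenged library.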

How the results depend on the processing

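In AE-PF against saline the count of lower genes stayed between 24 and 32 and that of higher genes between 7 and 13 over all alternatives. Equal FPKM totals moved the median of all genes by 0.11 on the log2 scale there, and gave 13 higher and 24 lower. In ND-RHL against AE-PF the 16 higher genes became 10 with an FPKM minimum of 5, 10 with no filter, 10 with limma-voom, 10 in a fit of those groups alone and 6 at equal totals, and 9 to 19 on leaving out 1 library; the 8 lower became 13 at equal totals. The higher share of calls was 66.7% as reported, 57.1% after quantile normalisation, 47.6% with limma-voom and 31.6% at equal totals, against 58.2%, 46.4%, 48.2% and 37.8% over all genes. In ND-RHL against saline the 6 higher genes became 3 with a minimum of 5, 2 with no filter, 2 with limma-voom, 1 after quantile normalisation and 1 to 6 on leaving out 1 library; the 24 lower genes stayed between 20 and 30. With the minimum of 5 only 48 of the chaperone genes were tested, against 67 in the main fit. The calls missing there are those of genes no longer tested, and no gene still tested lost its call. The cause of the other moves was not tested.

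With the replicate number as a block, 9 genes were higher and 29 lower in AE-PF against saline, 14 and 8 in ND-RHL against AE-PF, and 3 and 23 in ND-RHL against saline. Deviations of same-numbered libraries had correlations of -0.387 to 0.397 over 12 pairs, against -0.42 to 0.467 over 36 other pairs, so the numbers do not pair libraries across all groups. For ND-RHL and saline all 4 pairs lay between 0.114 and 0.397, and the calls the block changed there are those given beside that comparison; of the chaperone genes it changed no other call in it. In the other comparisons the correlations were -0.181 to 0.0651 (AE-PF and saline) and -0.387 to 0.339 (ND-RHL and AE-PF). Without AE-PF replicate 2 and ND-RHL replicate 4, the counts of higher and lower genes were 9 and 29, 12 and 9, and 4 and 28 in the same order. Of 1482 refits of the named calls, 1367 passed, 115 missed the threshold and 0 changed sign. Of 870 refits of values that did not pass, 21 passed. Depth limits the 8 genes under the filter.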
